A study of Homo sapiens with 16 samples.

Results

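NF-κB is a family of dimeric transcription factors that carry the inflammatory and survival response of cells to cytokines and pattern receptors. The genes examined were 10 members of this pathway, chosen by gene symbol: the subunits NFKB1, NFKB2, RELA and RELB, the inhibitors NFKBIA, NFKBIE and TNFAIP3, the survival factor BIRC3 and the cytokines IL6 and CXCL1. Of these, 8 are among the 12676 genes of the RNA-seq count table. IL6 and CXCL1 are not among the listed genes, all of which have more than 100 reads in at least 1 library, and were not analysed here.

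In resting cells IκB proteins such as IκBα (NFKBIA) and IκBε (NFKBIE) hold NF-κB dimers in the cytoplasm. In the canonical branch the IKK kinase marks IκB for destruction and frees p50 (from NFKB1) and RelA. In the non-canonical branch the p100 precursor from NFKB2 is cut to p52, which pairs mostly with RelB. The freed dimers switch on genes of their own inhibitors, among them NFKBIA, NFKBIE and TNFAIP3 (the ubiquitin-editing enzyme A20), and of the survival factor BIRC3 (cIAP2), so that these mRNAs are often read as a measure of pathway output.

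RNA-seq was performed in H1299, a line from a human lung tumour of the non-small cell type, with 2 libraries from cells that carried the non-targeting control vector (shNT, titled shCtrl) and 2 from cells with YEATS2 knockdown (shYEATS2). Both groups were infected with lentivirus for 48 h in polybrene at 8 µg per ml and kept in puromycin at 2 µg per ml for 4 to 7 days, so the controls had also passed through infection and drug selection. Each group is 1 cell line with 1 type of vector, and the study describes its duplicates as independent biological replicates. YEATS2 is a subunit of the ATAC histone acetyltransferase complex, and the comparison addresses which genes depend on it.

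The listed genes received between 34718921 and 39417787 reads per library. Scaled reads are reads brought to 1 common library size by TMM, which assumes that most genes keep their level. A gene was called higher or lower at a false discovery rate (FDR) under 0.01, adjusted by Benjamini-Hochberg over all 12676 genes, in the quasi-likelihood test of edgeR. The targeted gene YEATS2 stood at 4482.5 and 4104 scaled reads with shNT and at 665 and 673 with shYEATS2. KRT8, KRT18, VIM and CDH2 of the cell line markers are in the table, whereas EPCAM, CDH1 and the lung markers NAPSA, NKX2-1 and SFTPB are not among the listed genes. Of 11 leukocyte and endothelial markers only ITGAM is listed, at 231 and 136 scaled reads in shNT and 426 and 507 in shYEATS2, and it was higher (FDR 0.00613), while PTPRC, CD14 and PECAM1 are not listed. The part of other cells in the results was not tested, and in bulk libraries a smaller number of expressing cells and less RNA per cell cannot be told apart.

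Among the feedback genes, promoters of NFKBIA, TNFAIP3 and BIRC3 held a match to the sequence that NF-κB dimers bind. The kappaB consensus, of 10 bases, was searched on both strands in RefSeq promoters (GRCh38.p14) from 250 bases before to 50 bases after each start, with overlapping matches counted once. Such promoters were found for 6 of the 8 listed members (not for RELB and NFKBIE), and 5 of the 6 held a match, all but RELA. Over all 35116 promoters 5.91% held one. By gene, the share was 9.08% for the 9085 genes of the count table with a promoter. The matches nearest to a start are printed 5′ to 3′ along the gene with 10 flanking bases, the matched bases in capitals, and positions from an exact and single match to GRCh37 (hg19), the build of the files. They are shown as the sequence that marks these genes as possible NF-κB targets. No test ties them to the values given here.
NFKB1, chr4:103422457-103422486 (+), 49 bases before a start: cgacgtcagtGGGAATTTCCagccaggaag
NFKB2, chr10:104155431-104155460 (+), 21 bases before one of its starts: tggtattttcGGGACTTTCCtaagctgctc
NFKBIA, chr14:35874017-35874046 (-), 81 bases before the start: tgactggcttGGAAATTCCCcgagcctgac
TNFAIP3, chr6:138188331-138188360 (+), 55 bases before the start: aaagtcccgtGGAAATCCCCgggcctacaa
BIRC3, chr11:102188070-102188099 (+), 135 bases before the start: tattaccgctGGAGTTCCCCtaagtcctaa
A further match in BIRC3 lies 199 bases before its start and shares the matched bases of TNFAIP3: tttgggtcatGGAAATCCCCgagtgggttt
NFKB2 held 4 matches in all and TNFAIP3 held 2. A match is a description of the letters and no proof of binding in these cells.

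The canonical subunits, IκBα, A20 and cIAP2 had mRNA levels that overlapped between control and YEATS2 knockdown cells. The non-canonical subunits and IκBε stood higher in both knockdown libraries without passing the threshold, a position about as common over all genes. None of the 8 members was called higher or lower at an FDR under 0.01 in edgeR's quasi-likelihood test, against 12.9% of all genes called higher and 12.5% called lower, or 25.3% in either direction. At an unadjusted p under 0.05, 3 of the 8 members (NFKBIE, NFKB2 and RELB) were higher and 0 were lower, beside 28.7% of all genes higher and 27.8% lower at that threshold. In these 3 of the 8 members the knockdown libraries lay above both controls without overlap, near the share of all genes for which this was so (39.7%). The reverse held for 0 members and 39.8% of all genes, so that 79.6% of all genes had groups apart and 3 of the 8 members did. DESeq2 and edgeR's exactTest each called 2 members higher at the same FDR (NFKBIE and NFKB2). Limma-trend called 1 (NFKBIE), and none of these tools called a member lower. Of all 12676 genes, DESeq2 called 2159 higher, exactTest 2596 and limma-trend 1648, beside 1630 in the quasi-likelihood test. Whether members were called more often than all genes under these tools was not tested. The median log2 fold change over the 8 members was 0.13, beside -0.0019 over all genes.

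**Figure D1:**
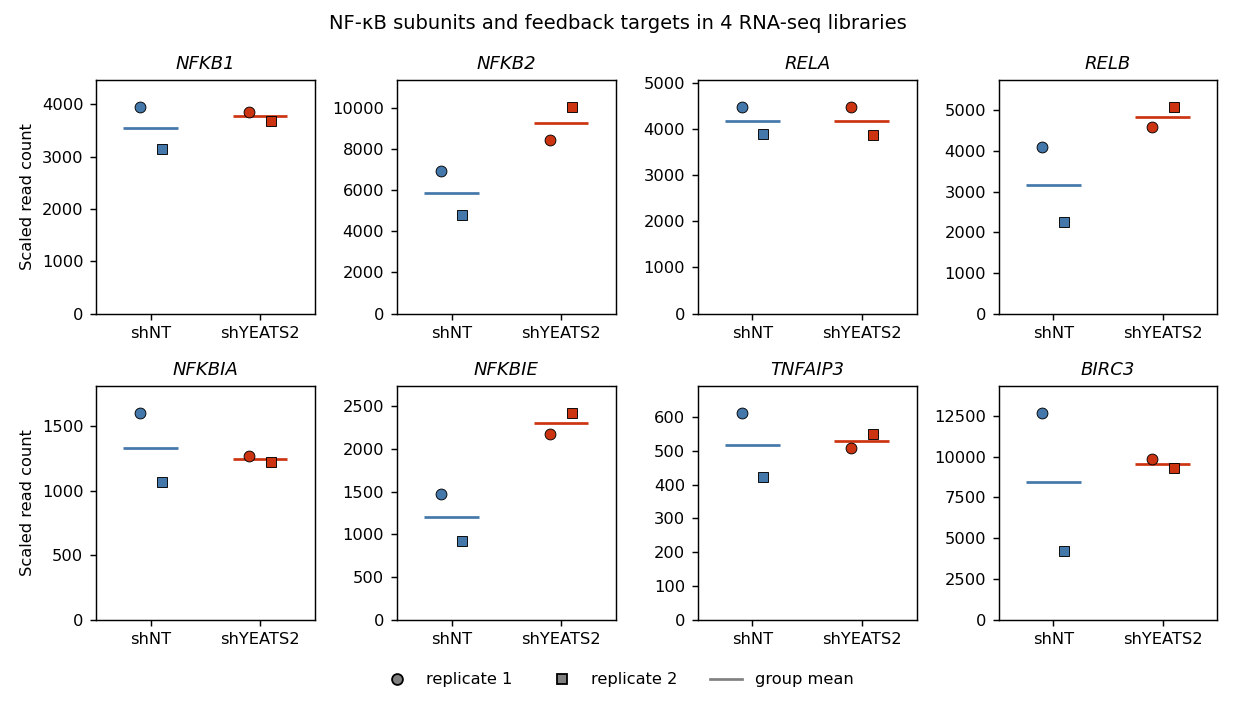
Scaled read counts (linear axis from 0) of the 8 members in the 2 shNT (blue) and 2 shYEATS2 (red) libraries, circles for replicate 1, squares for replicate 2 and lines for group means. In all 8 panels shNT replicate 1 lies above shNT replicate 2, and the groups do not overlap in NFKB2, RELB and NFKBIE.

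RELA encodes the main activating subunit of the canonical dimer. Control cells had 4472 and 3883 scaled reads of RELA and knockdown cells 4479 and 3863. Each group thus held nearly the same high and low value, and the log2 fold change of -0.0024 had a 95% interval from -0.29 to 0.28. RELA (ENSG00000173039) lies on chromosome 11 of GRCh37 from 65421070 to 65430561 on the minus strand.

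NFKB1, on chromosome 4 from 103422487 to 103538459 (ENSG00000109320), encodes p105 and its product p50. It had 3958.5 and 3155 scaled reads in shNT and 3857 and 3691 in shYEATS2. Both knockdown values fell between the controls. This gave a log2 fold change of 0.09 (95% interval -0.22 to 0.39).

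NFKB2 (ENSG00000077150, chromosome 10 from 104153867 to 104162281) encodes p100, which is both the precursor of p52 and an inhibitor of RelB. Control cells had 6946 and 4798 scaled reads and knockdown cells 8449 and 10056. Both knockdown libraries lay above both controls, with means of 5872 ± 1519 (SD, n = 2) and 9253 ± 1136 (SD, n = 2). This 1.58-fold difference (log2 0.66, standard error 0.18) did not pass, at an FDR of 0.0244 in edgeR's test.

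RELB, the partner of p52, lies on chromosome 19 from 45504719 to 45541450 (ENSG00000104856). It had 4088 and 2261 scaled reads in shNT and 4600 and 5090 in shYEATS2. The groups did not overlap, but shNT replicate 1 lay nearer to the knockdown libraries than to the other control. RELB differed by 0.61 on the log2 scale (standard error 0.25), with an FDR of 0.0819.

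Of the inhibitors, NFKBIE was apart between the groups and the other two were not. NFKBIE (ENSG00000146232, chromosome 6 from 44225903 to 44233525, minus strand) had 1476 and 921 scaled reads in shNT and 2179 and 2422 in shYEATS2. It showed the largest difference among the members, with means of 1199 ± 393 (SD, n = 2) and 2301 ± 172 (SD, n = 2). This is a 1.92-fold difference (log2 0.94, standard error 0.21), and its FDR of 0.0110 in edgeR's test was just above the threshold.

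NFKBIA, on chromosome 14 from 35870285 to 35873955 (minus strand, ENSG00000100906), is a feedback gene that NF-κB switches on quickly. It had 1602 and 1064 scaled reads in shNT and 1269.5 and 1218 in shYEATS2, so both knockdown values lay between the controls. Its log2 fold change was -0.10 (95% interval -0.54 to 0.34).

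TNFAIP3 (A20) removes the ubiquitin chains that carry the signal to IKK, and lies on chromosome 6 from 138188351 to 138204451 (ENSG00000118503). It had 612 and 422 scaled reads in shNT and 508 and 548 in shYEATS2, again with both knockdown values between the controls. A log2 fold change of 0.03 resulted (95% interval -0.41 to 0.47).

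BIRC3, which encodes the ubiquitin ligase and survival factor cIAP2, lies on chromosome 11 from 102188215 to 102210134 (ENSG00000023445). It had 12690 and 4208 scaled reads in shNT and 9861 and 9289 in shYEATS2. The controls spanned both knockdown values, and their SD of 5998 reads compared with 404 in shYEATS2 (n = 2 each). At 0.18 the log2 fold change was smaller than its standard error of 0.43, and a difference within this spread was not detectable.

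**Figure D2:**
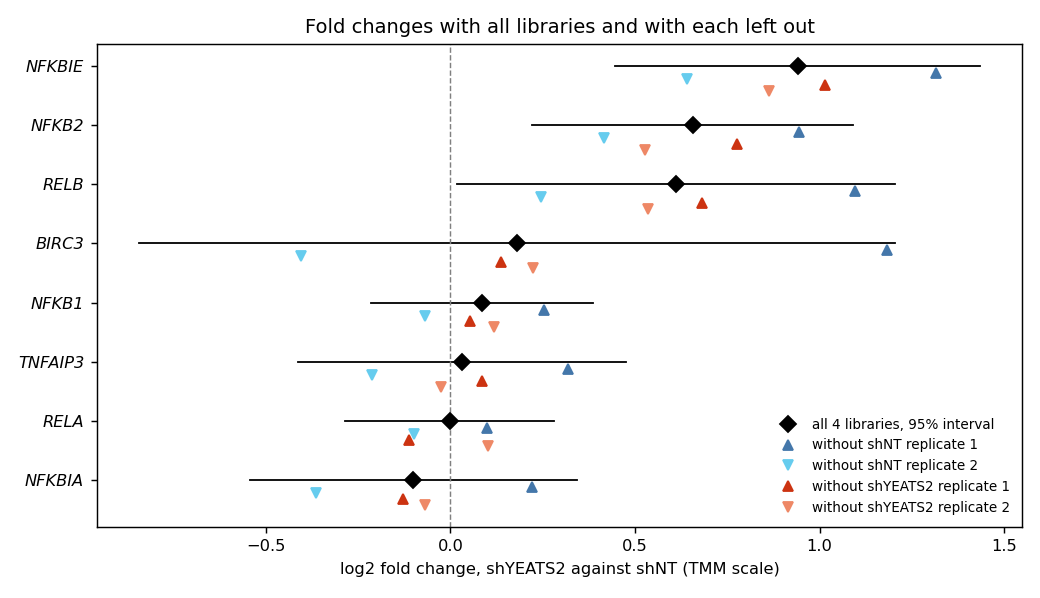
Log2 fold change of shYEATS2 against shNT for each member with all 4 libraries (black diamond, bar for the 95% interval of the quasi-likelihood fit) and with 1 library left out (triangles). Without shNT replicate 1 all 8 values lie above 0, up to 1.32 for NFKBIE, and without shNT replicate 2 BIRC3 lies at -0.41.

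Per length of exon sequence the members spanned a wide range of levels in shNT cells. BIRC3 had 46.5 and 15.4 RPKM (reads per kilobase of exon, scaled to library size), RELB had 37.4 and 20.7, NFKB2 had 34.2 and 23.6 and RELA had 22.5 and 19.5. Both NFKB2 values lay above both RELA values, and each other pair of these 4 genes overlapped in the controls. NFKBIE (15.7 and 9.80) and NFKBIA (13.0 and 8.61) came next by their means and overlapped each other, and NFKBIE also overlapped BIRC3. NFKB1 lay below them at 6.93 and 5.52 and TNFAIP3 was lowest at 2.61 and 1.80. In the shYEATS2 libraries NFKB2 (41.5 and 49.4) and RELB (42.1 and 46.6) stood above BIRC3 (36.2 and 34.1), and NFKBIE (23.2 and 25.8) stood above RELA (22.5 and 19.4). Levels between genes use the union of annotated exons, which can exceed the transcripts made in these cells. This union has 15679 bases for NFKB1 and 5457 for RELA, so the low place of NFKB1 depends on it.

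The control libraries differed from each other in the members. All 8 members were higher in shNT replicate 1 than in replicate 2, from 1.15-fold for RELA to 3.02-fold for BIRC3, with a median of 1.48-fold, whereas 49.9% of all genes were higher in that replicate and the median ratio over all genes was 1.00. In 4 of the 8 members (BIRC3, RELB, NFKBIE and NFKBIA) the ratio was above 1.5, which 85 of 12676 genes (0.671%) reached. The ratio of BIRC3 was reached by 2 of the tested genes, BIRC3 itself and GPNMB, which had 4.30 and 1.08 scaled reads, and that of RELB (1.81) by 27. In shYEATS2 cells 4 members were higher in replicate 1 and 4 in replicate 2, with ratios of replicate 1 to replicate 2 from 0.84 to 1.16 and a median of 0.984. With 1 library on each side these ratios have no test, and which control library better represents the line was not tested.

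**Figure D3:**
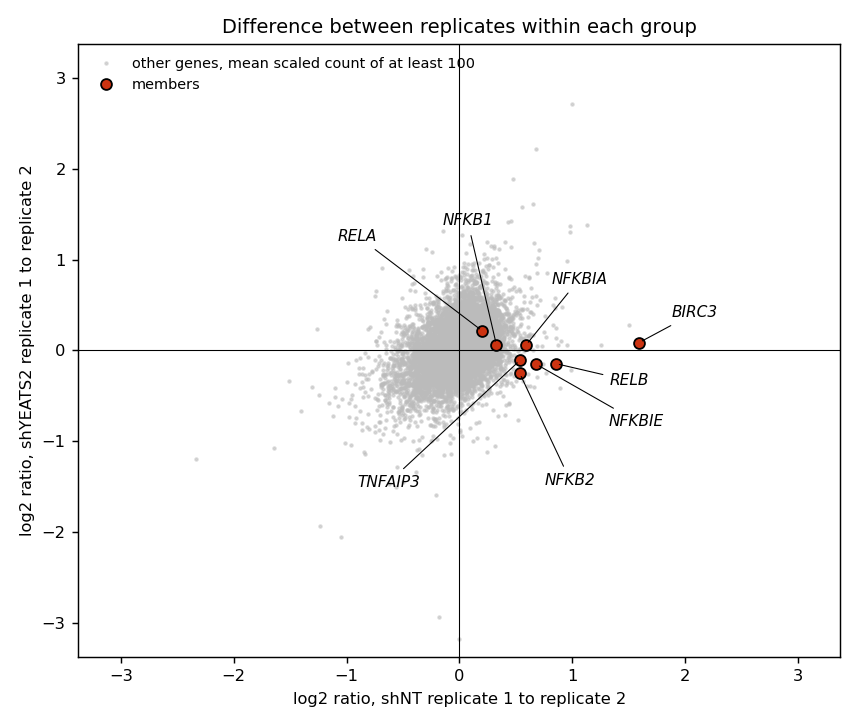
Log2 ratio of replicate 1 to replicate 2 in shNT (x axis) against the same ratio in shYEATS2 (y axis), with members in red and, in grey, other genes whose mean is 100 scaled reads or more. All 8 members lie to the right of 0 on the x axis, BIRC3 farthest, while on the y axis they fall on both sides of 0.

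The members' fold changes depended on which control library was kept. Without shNT replicate 1 the largest log2 fold changes were 1.32 for NFKBIE, 1.18 for BIRC3, 1.10 for RELB and 0.94 for NFKB2. Without shNT replicate 2 they were 0.64 for NFKBIE, 0.41 for NFKB2 and 0.25 for RELB, and BIRC3 turned to -0.41. In the fits without either shYEATS2 library NFKBIE had log2 fold changes of 1.02 and 0.86. A fit with a lone library in a group assumes that it varies like the other group.

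Ratios of a pair of members within a library do not depend on how libraries are scaled. The 3 pairs were chosen after their values were seen. The ratio of NFKBIE to NFKBIA reads was 0.921 and 0.865 with shNT and 1.72 and 1.99 with shYEATS2. The controls, which differed by over 1.5-fold in each of these genes, thus differed little in their ratio, and the means were 0.893 ± 0.0396 and 1.85 ± 0.192 (SD, n = 2 each). For NFKB2 to NFKB1 the ratios were 1.75 and 1.52 in shNT and 2.19 and 2.72 in shYEATS2. For RELB to RELA they were 0.914 and 0.582 in shNT and 1.03 and 1.32 in shYEATS2. In each pair both knockdown values lay above both controls. Any such separation gives p = 0.333 in the two-sided exact permutation test. This is the smallest p that 2 libraries against 2 allow, so the test cannot decide.

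The genes whose pattern over the 4 libraries was most like that of NFKBIE, the member with the largest difference, were PTX3, ARHGAP31, SGK1, ABCC2 and SLC25A24P1. Likeness was the Euclidean distance between log2 scaled counts centred on their mean, which was 0.0448 for PTX3 and 0.0960 for ARHGAP31. PTX3, a secreted pattern recognition protein that also stands in the list of NF-κB targets, had 507 and 304 scaled reads in shNT and 726 and 803 in shYEATS2. SLC25A24P1 is a pseudogene whose reads may come from its parent gene. The measure rests on 4 libraries that share their depth and scaling.

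Counts of called genes in the lists around the members are read against the shares over all genes, 12.9% higher and 12.5% lower at an FDR under 0.01 and 28.7% and 27.8% at an unadjusted p under 0.05. Of the 8 other IκB and NF-κB proteins listed, 1 was called higher and 0 lower. It was PIR (pirin, a nuclear protein that binds BCL3), at 989 and 770 scaled reads in shNT and 1718 and 2356 in shYEATS2 (log2 fold change 1.21, FDR 0.00326). The median log2 fold change of this list was 0.16. Among 37 listed genes of the IKK complex and the routes to it, 2 were higher and 4 lower (6 and 8 at an unadjusted p under 0.05), shares that are not above those of all genes, with a median of 0.05. Leaving out a library gave 1 lower gene without shNT replicate 1, 2 without shNT replicate 2 and 1 higher gene without the latter.

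Within that list CHUK, the kinase IKKα that acts in the non-canonical branch, had the largest fall. It had 1695 and 1680 scaled reads in shNT and 867 and 743 in shYEATS2 (log2 fold change -1.07, FDR 0.00129). IRAK1, a kinase of the interleukin 1 and Toll-like receptor pathways, fell by 0.81 on the log2 scale (FDR 0.00650). The adaptor CARD10 (-0.80) and ECSIT (-0.68) were also called lower. IL1RAP, the co-receptor for interleukin 1, rose by 0.99 (FDR 0.00170), and RBCK1, a subunit of the linear ubiquitin ligase, by 0.71. IKBKB (0.01) and IKBKG (0.04), the other subunits of IKK, were not called. Of 15 listed negative regulators 2 (13.3%, near the share of all genes) were higher and 0 lower (7 and 1 at an unadjusted p under 0.05), namely TOLLIP (0.98), which restrains Toll-like receptor signals, and the RNase ZC3H12A (0.74). Their median was 0.21.

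Among 35 listed genes known as NF-κB targets, 8 were higher and 2 lower at an FDR under 0.01, or 22.9% higher beside 12.9% of all genes. Their median log2 fold change was 0.32. At an unadjusted p under 0.05, 17 were higher and 7 lower, beside 28.7% and 27.8% of all genes. The table lists genes with over 100 reads in some library, and 4 of the 35 (EFNA1, TNC, CCL5 and CSF1) entered it through a shYEATS2 library alone, where they had to be the higher. EFNA1 and TNC are among the 8 called higher, and all 4 are among the 17. Among the 31 with over 100 reads in a shNT library 6 were higher, beside 11.7% of all genes so chosen. The other 19 genes of this list, CXCL8, CCL2, IL1B, TNF and PTGS2 among them, are not listed in the table. ICAM1, an adhesion molecule for leukocytes, had 1476 and 1321 scaled reads in shNT and 4451 and 8664 in shYEATS2, a log2 fold change of 2.23 (standard error 0.29, FDR 0.00203). Its controls differed by 1.12-fold and its shYEATS2 libraries by 1.95-fold. The ephrin ligand EFNA1 (1.70), the matrix protein TNC (1.62), the transcription factor CEBPD (1.23) and B2M (0.89), the light chain of MHC class I, rose as well, whereas the transcription factor KLF6 fell by 0.79. SOD2, a mitochondrial enzyme that NF-κB induces, had 6771 and 6868 scaled reads in shNT and 7118 and 6886 in shYEATS2 (log2 fold change 0.04), and the chemokine CXCL2 had a log2 fold change of -0.25 (FDR 0.184). The count of higher targets was 4 without shNT replicate 2 and 12 without shYEATS2 replicate 1.

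Some of these targets also respond to interferon. Of 12 listed interferon-induced genes 3 were higher and 0 lower, beside 12.9% and 12.5% of all genes. At an unadjusted p under 0.05 the counts were 9 and 0, beside 28.7% and 27.8% of all genes. IFIT2 had 76.4 and 113 scaled reads in shNT and 412 and 1164 in shYEATS2. OASL had 0 and 2 reads in shNT and 80 and 417 in shYEATS2. OASL and OAS2 are in the table through a shYEATS2 library alone, where they had to be the higher. OASL is among the 3 called higher, and both are among the 9. Of the other 10 genes 2 were higher (20%), beside 11.7% of all genes with over 100 reads in a shNT library. All 12 genes were higher in shYEATS2 replicate 2 than in replicate 1, from 1.27-fold to 5.68-fold (OAS2). The size of the difference from the controls thus depended on the knockdown library. The part of the interferon-induced genes' response in the NF-κB targets was not tested.

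**Figure D4:**
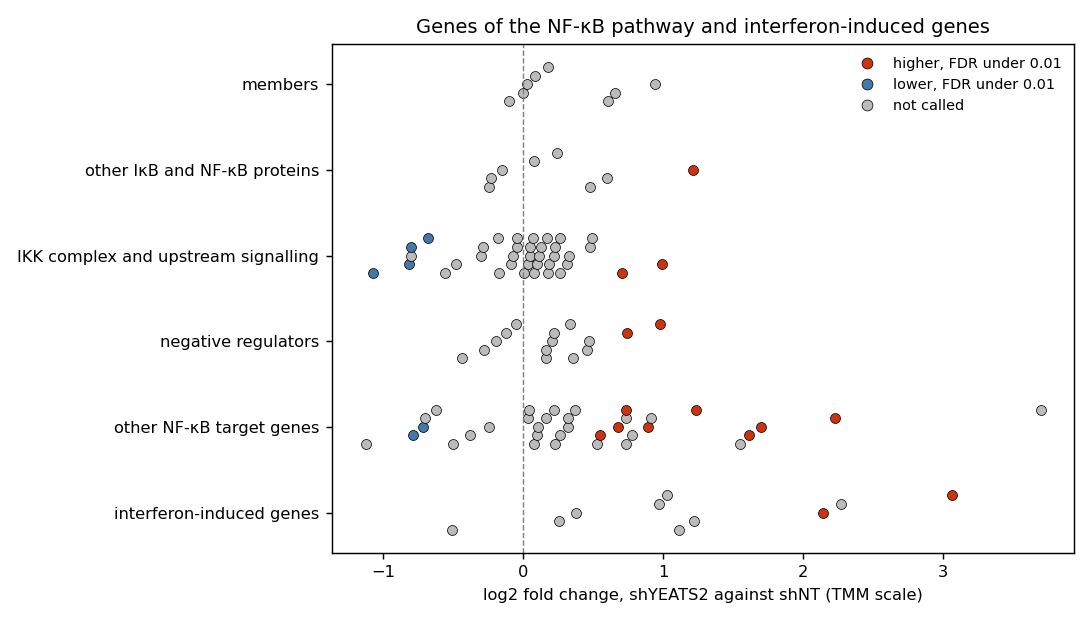
Log2 fold change of each listed gene by list, red for called higher, blue for called lower and grey for not called at an FDR under 0.01, with points spread vertically only to separate them. No member is called. The targets include CCL5, EFNA1, TNC and CSF1, which entered the table through a shYEATS2 library alone and so had to lie above 0. OASL and OAS2, with at most 2 reads in either control library, are left out.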

How the data were processed

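The study's methods name the RNA-Seq unified mapper and hg19, whereas the submitters' processing notes name TopHat2 2.0.10. For each gene the authors deposited HTSeq counts, which are not normalized. The deposited log2 fold changes, p-values and FDR values of the authors' edgeR exactTest were not used. Selection lasted 4 to 7 days in the labels and a shorter time in the methods.

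A minimum of 10 reads in 2 libraries removed none of the 12676 genes. The quasi-likelihood test of edgeR 4.0.16 under R 4.3.3 used TMM factors, no replicate block and the study's FDR threshold of 0.01. Alternatives were DESeq2 1.42.0, exactTest, limma-trend (limma 3.58.1, pseudocount of 1), other scalings and filters, a replicate block, an FDR of 0.05 and each library left out. ExactTest with total counts was added after the data had been seen. Intervals come from the quasi-likelihood standard error. The methods were tested on simulated data. Members and lists were chosen with earlier results of these data known. Named genes are the members, YEATS2, up to 6 called genes per list among those averaging 100 scaled reads or more, and the 5 genes most like the called (if none, any) member with the largest fold change. ITGAM, GPNMB, CCL5, CSF1, OAS2, SOD2, IKBKB, IKBKG, CXCL2 and the genes named in the closing section were chosen after their values were seen. Positions come from GENCODE v44 on GRCh37, to which 12465 of 12676 identifiers matched. The ChIP-seq samples were not used here, and some genes are not reported here.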

Additional observations from a re-analysis of the deposited data

How the results depend on the processing

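The counts of calls depended on the test and the control library. Higher members numbered 2 with DESeq2, 2 with exactTest, 1 with limma-trend, 1 with total counts, 1 with upper quartile scaling, 2 at an FDR under 0.05, 3 with exactTest on total counts (NFKBIE, NFKB2 and RELB) and 0 to 4 with a library left out, and lower members 0 throughout. Total counts moved the median of all genes from -0.0019 to 0.12 and the share of calls that were higher from 50.8% to 67.0%. Over all genes 1630 were higher and 1581 lower. The higher calls were 2596 with exactTest, 3093 at an FDR under 0.05, 3464 with exactTest on total counts and 775 to 1971 with a library left out, and the lower calls 2497, 3011, 1778 and 850 to 2024. Total counts gave 2363 higher and 1166 lower, and DESeq2 gave 2159 and 2190.

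Higher targets numbered 15 with DESeq2, 15 with exactTest, 14 with total counts, 17 at an FDR under 0.05, 17 with exactTest on total counts and 4 to 12 with a library left out. Lower targets numbered 4 with exactTest, 5 at an FDR under 0.05 and 2 to 3 with a library left out. Higher interferon-induced genes numbered 8 with DESeq2, 9 with exactTest, 7 with total counts, 6 with upper quartile scaling, 9 at an FDR under 0.05, 9 with exactTest on total counts and 3 to 8 with a library left out (lower, 0 to 1). Higher IκB and NF-κB proteins numbered 3 in each of the 6 alternatives just named and 1 to 2 with a library left out. Higher negative regulators numbered 4 with DESeq2, 5 with exactTest, 5 with total counts, 5 at an FDR under 0.05, 7 with exactTest on total counts and 1 to 2 with a library left out, and lower ones 1 with exactTest, 1 at an FDR under 0.05 and 0 to 1 with a library left out. Genes of the IKK list numbered 4 higher and 7 lower at an FDR under 0.05, 5 higher with exactTest on total counts, and 1 to 3 higher and 1 to 6 lower with a library left out. The cause of these differences was not tested.

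Members near 0 changed sign. RELA was 0.12 with total counts in either test, 0.017 with upper quartile scaling and 0.010 with a mean count of at least 100. NFKBIA was 0.021 with total counts and 0.022 with exactTest on total counts. With a library left out, NFKB1 ranged from -0.068 to 0.25, RELA from -0.11 to 0.10, NFKBIA from -0.36 to 0.22, TNFAIP3 from -0.21 to 0.32 and BIRC3 from -0.41 to 1.18, lowest without shNT replicate 2 (RELA, without shYEATS2 replicate 1) and highest without shNT replicate 1 (RELA, without shYEATS2 replicate 2). NFKBIE, NFKB2 and RELB were above 0 in all alternatives.

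With the replicate block, 2 members were higher (NFKBIE and NFKB2) and 0 lower, and the lists gave 3 higher IκB and NF-κB proteins, 5 higher and 1 lower negative regulators, 16 higher and 6 lower targets, 9 higher interferon-induced genes, and 2742 higher and 2715 lower genes of all. The groups share replicate numbers only. The differences of replicate 1 from replicate 2 had a correlation of 0.41 between the groups over 12123 genes, a description with 2 pairs, which do not establish a pairing.

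With 2 libraries in each group, p-values rest on few samples, the standard error of log2 fold changes had a median of 0.12, and members whose intervals span 0 are not shown to be equal between the groups.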

Other observations

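The control difference in the members extended to some further genes of the pathway. TRAF1, an adaptor that binds cIAP2 and is itself an NF-κB target, had 2646 scaled reads in shNT replicate 1 and 932 in replicate 2, a 2.84-fold difference, and 2763 and 2270 in the shYEATS2 libraries. BIRC2 (cIAP1), the neighbour of BIRC3 on chromosome 11, had 4876 and 3361 in shNT and 3967 and 3293 in shYEATS2. Of the listed targets, CD83 (1.78-fold), PTX3 (1.67-fold), LIF (1.64-fold) and SDC4 (1.51-fold) were also higher in shNT replicate 1, while the median ratio over the 35 listed targets was 1.11. ICAM1 (1.12-fold), SOD2 (0.986) and TAP1 (1.17) differed less between the controls. Genes outside the lists showed the difference too, among them CTGF (1.78-fold), THBS1 (1.97-fold) and ID1 (1.87-fold). These genes were chosen after their values were seen, and no test was made on them.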
